A study of Mus musculus with 44 samples.

Results

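The 10 imprinted growth genes described here are H19, Igf2, Meg3, Rian, Mirg, Dlk1, Peg3, Grb10, Cdkn1c and Plagl1. They were taken by symbol from a count table of 46831 genes, all 10 were found, and all 10 passed the filter on low counts in every comparison. Their RNA and its recovery by an m6A antibody were followed through 8 wild-type (WT) skeletal cell populations, and between WT and Mettl3 conditional knockout (Mettl3cko) cells in 3 of them.

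The cells were sorted by flow cytometry from the long bones of C57Bl6 mice at postnatal day 3. The WT populations were skeletal stem cells (SSC), pre-bone, cartilage and stromal progenitors (pBCSP), bone, cartilage and stromal progenitors (BCSP), pro-chondrogenic progenitors (PCP), the Thy subpopulation (THY), B-cell lymphocyte stromal progenitors (BLSP), cells expressing hepatic leukemia factor (HEC) and the 6C3 subpopulation (6C3). SSC, pBCSP and BCSP are called the stem/progenitor populations here and the other 5 the downstream populations. The Mettl3cko mice were Mettl3 fl/fl;Col2a1-Cre, in which Cre is driven by the promoter of the type II collagen gene. The paper names Mettl3 fl/fl mice, with floxed Mettl3 alleles and no Cre, as the WT controls of this knockout. It does not state whether the mice that gave the WT populations listed above carried floxed alleles. Col2a1-Cre acts in chondrogenic cells and their precursors and not in every cell of a bone. Each population of each genotype gave 2 input libraries (RNA-seq) and 2 libraries of RNA recovered with an antibody against N6-methyladenosine (IP), 44 libraries in all. The title of each knockout library reads Mettl3cko, whereas the genotype field in the labels reads wild type for all 44 libraries, and the groups follow the titles. The 2 replicates are described as independent experiments, but no label ties a library to an animal or a litter, and p-values measure the spread between these libraries.

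Imprinted genes are expressed mainly from the copy inherited from a single parent, and many of them set the rate of growth before and shortly after birth. On distal chromosome 7, Igf2 encodes a paternally expressed growth factor ligand, and its neighbour H19 gives rise to a maternally expressed long noncoding RNA; the 2 genes share enhancers. Cdkn1c, in the adjoining imprinted domain, encodes the cyclin-dependent kinase inhibitor p57, which growth plate chondrocytes need to leave the cell cycle. Grb10 encodes an adaptor that binds activated insulin and IGF1 receptors and dampens their signal. The Dlk1-Dio3 domain on chromosome 12 holds the paternally expressed Dlk1, a transmembrane protein related to Notch ligands, and the maternally expressed noncoding RNAs Meg3, Rian and Mirg, which host small nucleolar RNAs and microRNAs. Peg3 and Plagl1 encode zinc finger proteins, and Plagl1 is known as an activator of other imprinted genes. The libraries carry no information on the parental copy, so none of the values below is a measure of imprinting. N6-methyladenosine (m6A) is placed by a complex of METTL3 and METTL14, most often in a short sequence context of which GGACT is a common form.

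In the mouse genome build GRCm38, H19 lies at chr7:142575529-142578143 and Igf2 at chr7:142650766-142666816, both on the minus strand. Cdkn1c lies at chr7:143458339-143461050 and Peg3 at chr7:6703892-6730431, also on the minus strand. On chromosome 12 and the plus strand, Dlk1 lies at chr12:109452823-109463336, Meg3 at chr12:109541001-109571726, Rian at chr12:109603940-109661716 and Mirg at chr12:109729764-109749460. Grb10 lies at chr11:11930508-12038683 on the minus strand and Plagl1 at chr10:13060504-13131694 on the plus strand.

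H19 was the member with the highest IP to input ratio, and its sequence is therefore shown first. Its annotated transcript of 2286 bases (GENCODE vM21) holds 6 matches to GGACT, searched on the transcribed strand only, or 2.62 per kb. Of the 15249 tested genes with a transcript in the annotation, 96% had a lower density, and 90.2% of the 1403 genes within 10% of the length of H19 held at least 1 match. Each match is printed below from 5′ to 3′ in a window of 21 bases, with the match in capitals; positions count from the 5′ end of the transcript, and all windows are on the minus strand of chromosome 7.
H19 position 129, chr7:142578003-142578023: atgttgaaGGACTgaggggct
H19 position 923, chr7:142577209-142577229: caggtatcGGACTccagaggg
H19 position 1007, chr7:142577125-142577145: cggcccagGGACTggtgcgga
H19 position 1033, chr7:142577099-142577119: cccacagtGGACTtggtacac
H19 position 1301, chr7:142576831-142576851: aagagctcGGACTggagacta
H19 position 1614, chr7:142576277-142576297: gaatccggGGACTtctttaag
The first 5 windows are in exon 1 and the last in exon 4 of the 5 exons, and the windows at positions 1007 and 1033 lie within the hairpin of miR-675. A match says only that these letters are present. The other members held from 2 matches in Igf2, Rian and Cdkn1c to 16 in Meg3, with densities from 0.247 per kb in Rian to 1.57 per kb in Mirg.

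Of the 10 members, 5 host microRNAs in the RefSeq annotation of GRCm38.p6. H19 hosts 2 mature microRNAs, Igf2 hosts 2, Meg3 hosts 3, Rian hosts 6 and Mirg hosts 26, which makes 39 with 38 different seeds. The mature sequences of the H19 and Igf2 hosts, whose RNA differed most between the populations, are given below with the seed (bases 2 to 8) in capitals, followed by the pair in Mirg that shares a seed.
mmu-miR-675-5p (H19): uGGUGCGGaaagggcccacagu
mmu-miR-675-3p (H19): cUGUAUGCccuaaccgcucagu
mmu-miR-483-5p (Igf2): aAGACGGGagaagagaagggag
mmu-miR-483-3p (Igf2): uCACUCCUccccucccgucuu
mmu-miR-453 (Mirg): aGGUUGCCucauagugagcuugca
mmu-miR-496a-5p (Mirg): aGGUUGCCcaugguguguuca
The libraries measure host RNA and not mature microRNAs, so the values below say nothing of the level of these sequences.

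Library totals ran from 19795666 to 44046651 counts in the WT input, from 16480027 to 35856651 in the WT IP, from 30050178 to 35325482 in the Mettl3cko input and from 22056571 to 33126857 in the Mettl3cko IP. Values are given as CPM, the counts of a gene after scaling each library to a common total, and levels are compared between genes only after division by the exonic length in kb. The summed CPM of 8 chondrocyte markers was between 91375 and 110344 in the WT stem/progenitor input and between 7877 and 98283 in the downstream input, and the sum of 6 osteoblast markers was between 5438 and 11350 and between 66480 and 143577. Downstream, the chondrocyte sum was 7877 to 20608 CPM in PCP, THY and BLSP and 43051 to 98283 CPM in 6C3 and HEC. It was mostly Col2a1. Other markers of that list differed: mean Matn1 was 1592 CPM in SSC and 3.37 in HEC, and mean Sox9 5059 and 5850. The osteoblast sum was mostly Col1a1, whose population means were 4921 to 11173 CPM and 70894 to 134214 CPM, whereas Alpl, Ibsp and Bglap were higher in SSC and BCSP than in THY, 6C3 and HEC. Markers of skeletal muscle, blood and endothelium summed to at most 86.2 CPM in any input library. The libraries are bulk, so fewer cells of a type and less RNA per cell cannot be told apart, and the part of the marker differences in the results below was not tested.

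H19 and Igf2, neighbours on chromosome 7, moved in opposite directions along the hierarchy. H19 was at 2616 and 2455 CPM in the 2 BCSP libraries, 1111 and 2034 in SSC and 1092 and 1108 in pBCSP. Among the downstream populations HEC had 677 and 516 CPM, BLSP 834 and 476, THY 372 and 716, 6C3 355 and 490 and PCP 356 and 415. Every stem/progenitor library was above every downstream library, and the difference was 1.66 ± 0.17 (SE) on the log2 scale, 3.15-fold (edgeR quasi-likelihood test, adjusted p = 8.35e-07). Igf2 was between 19 and 33.8 CPM in the 6 stem/progenitor libraries, with a median of 24.3. In the 10 downstream libraries it was between 96.4 and 257 CPM with a median of 185, again without overlap. The fall in the stem/progenitor populations relative to the downstream ones was -2.85 ± 0.17 on the log2 scale, 7.21-fold (edgeR adjusted p = 3.06e-09), the largest difference among the 10 members.

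Per kb of exon, H19 exceeded Igf2 in every library, but by very different factors. In the stem/progenitor libraries H19 was 320 and 253 times Igf2 in BCSP, 107 and 165 times in SSC and 75.1 and 105 times in pBCSP. In the downstream libraries the factor was between 4.31 in a BLSP library and 10 in a THY library. GENCODE vM21 places a protein-coding gene, Gm49394, on the same strand over 62.8% of the exonic length of Igf2, so the share of reads assigned to Igf2 depends on the annotation used for counting, which is not given in the sources used here.

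The growth-restraining genes Cdkn1c and Grb10 were lower in the stem/progenitor populations. Cdkn1c was between 159 and 316 CPM in the 6 stem/progenitor libraries (median 263) and between 484 and 952 CPM in the 10 downstream libraries (median 731), with no overlap. The difference was -1.57 ± 0.17 on the log2 scale (2.97-fold, edgeR adjusted p = 1.39e-06). GENCODE vM21 has an antisense gene, Gm44732, over 30.7% of the exonic length of Cdkn1c, and since the libraries were made by a protocol based on Smart-seq2 with Tn5 fragmentation, which does not mark strand, reads of the 2 genes cannot be told apart there. Grb10 was between 350 and 1144 CPM in the stem/progenitor libraries (median 624) and between 618 and 1070 CPM downstream (median 949). These ranges overlapped. The second libraries of SSC (651 CPM), BCSP (758 CPM) and pBCSP (1144 CPM) lay above the lowest downstream library, the first of HEC. The second pBCSP library was the highest of all 16. The difference of -0.55 ± 0.18 (edgeR adjusted p = 0.0179) passed the threshold, but not without the first library of SSC (adjusted p = 0.0612), of pBCSP (0.0615) or of BCSP (0.0535).

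Of the Dlk1-Dio3 members, Meg3, Rian and Dlk1 rose in the stem/progenitor populations by smaller factors than H19, and Mirg did not pass the test. Meg3 was between 812 and 1244 CPM in the stem/progenitor libraries (median 1139) and between 494 and 1078 CPM downstream (median 740). Its difference was 0.48 ± 0.13 on the log2 scale (1.40-fold, edgeR adjusted p = 0.00713), and 4 downstream libraries lay within the stem/progenitor range, both of HEC (1078 and 1033 CPM) and the second of BLSP (956) and of 6C3 (851). Rian was between 90.5 and 178 CPM against 48.3 to 114 CPM, a difference of 0.67 ± 0.14 (1.59-fold, edgeR adjusted p = 0.00109). Dlk1 was between 357 and 1018 CPM (median 798) against 288 to 791 CPM (median 452), a difference of 0.64 ± 0.21 (1.56-fold, edgeR adjusted p = 0.0188). In each of SSC, pBCSP and BCSP the second library held more Dlk1 than the first, by up to 2.75-fold. The second library was also the higher in all 3 for Meg3, Rian, Mirg, Peg3, Grb10 and Plagl1, by up to 2.17-fold, and the lower in all 3 for Cdkn1c. Without the second SSC, pBCSP or BCSP library the Dlk1 difference was 0.49, 0.43 or 0.33 and its adjusted p 0.0763, 0.0890 or 0.149. Mirg, the lowest member, was between 8.83 and 18.3 CPM against 3.45 to 20.7 CPM, a difference of 0.36 ± 0.22 (edgeR adjusted p = 0.191).

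Both zinc finger genes rose in the stem/progenitor populations. Peg3 was between 1187 and 2590 CPM in the stem/progenitor libraries (median 1778) and between 331 and 1403 CPM downstream (median 829). The difference was 1.15 ± 0.20 on the log2 scale (2.22-fold, edgeR adjusted p = 1.56e-04), and a single downstream library, the second of BLSP at 1403 CPM, lay within the stem/progenitor range. Plagl1 was between 142 and 289 CPM (median 225) against 66.4 to 211 CPM (median 133), a difference of 0.75 ± 0.17 (1.68-fold, edgeR adjusted p = 0.00175). The highest downstream Plagl1 value was in a HEC library.

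**Figure D1:**
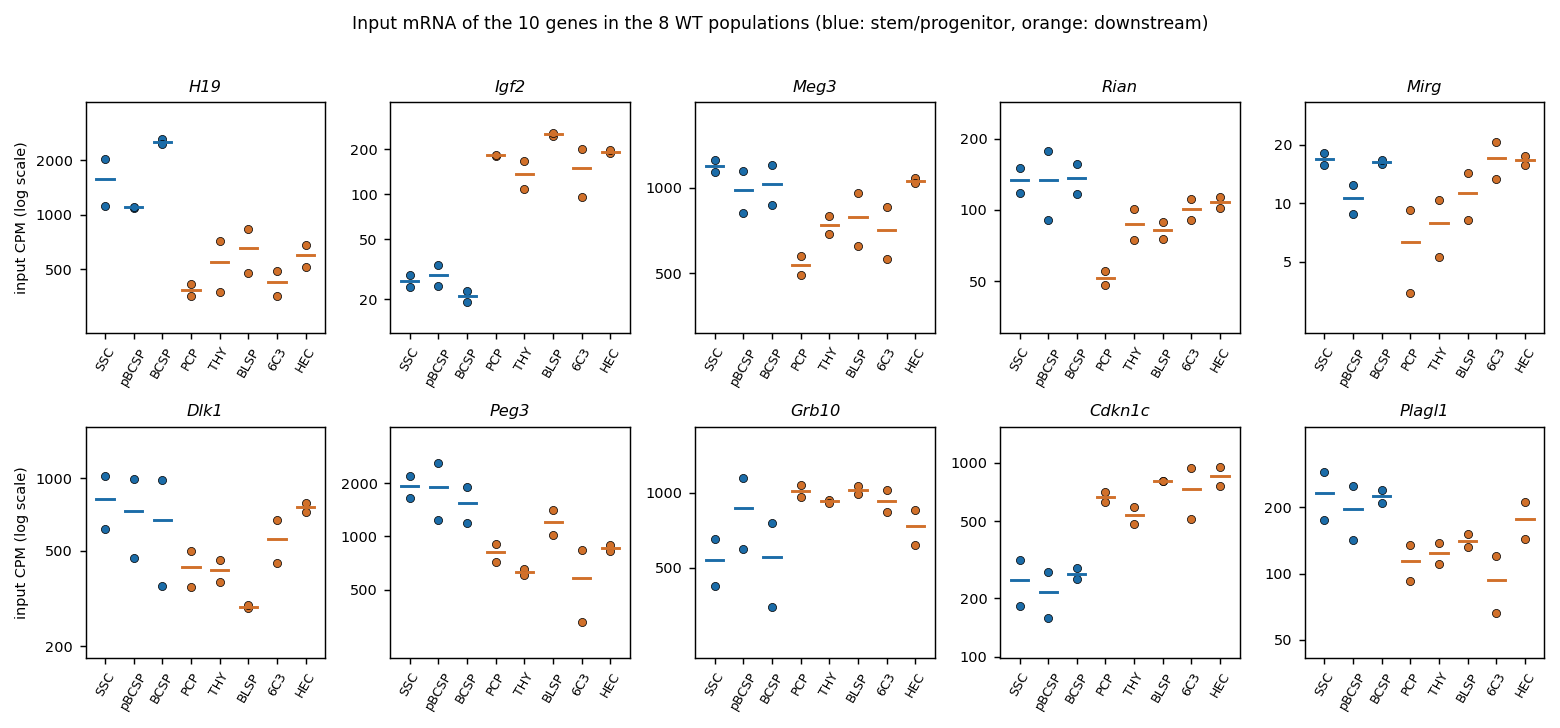
Input CPM (log axis) of each of the 10 genes in the 2 libraries of each WT population; points are libraries and horizontal bars their means, blue for stem/progenitor and orange for downstream populations. For H19 the lowest stem/progenitor library (1092 CPM) is above the highest downstream library (834 CPM), and for Igf2 and Cdkn1c all downstream libraries are above all stem/progenitor libraries.

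In all, 6 members were higher and 3 lower in the stem/progenitor populations, whereas 23.1% and 28.3% of all 20060 genes tested were called in these directions. The median difference was 0.56 over the members and -0.11 over all genes tested. Libraries of the stages did not overlap for 3 members, H19, Igf2 and Cdkn1c. The share of all genes without such overlap was not computed, so this count is a description only. Over the 8 population means, an exact two-sided permutation test of 3 against 5 populations, unadjusted for the 10 members, gave the smallest p its 56 splits allow, 0.0179, for H19, Igf2, Cdkn1c and Peg3. It gave 0.0357 for Rian, Grb10 and Plagl1, 0.107 for Meg3, 0.161 for Dlk1 and 0.393 for Mirg.

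**Figure D2:**
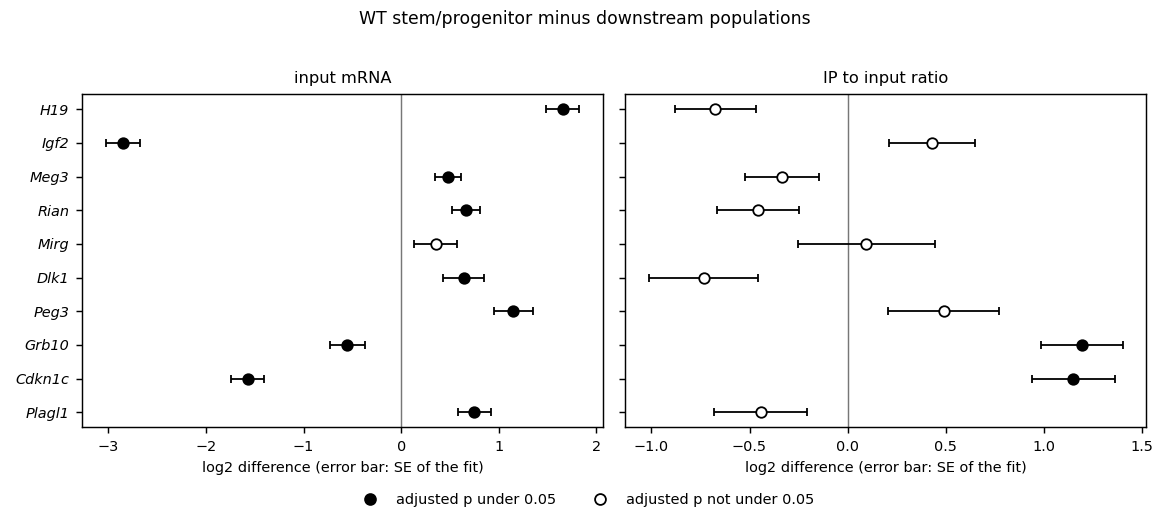
Difference between stem/progenitor and downstream WT populations on the log2 scale, for input mRNA and for the IP to input ratio, with bars of 1 SE; filled points have an edgeR adjusted p under 0.05. For mRNA, H19 (1.66) and Igf2 (-2.85) are farthest from 0, and for the ratio, Grb10 (1.19) and Cdkn1c (1.15).

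When the 8 populations were compared without regard to stage, 7 members differed (edgeR, all except Dlk1, Grb10 and Mirg), and 40.1% of all genes did. H19 ran from 2535 ± 114 CPM (SD, n = 2) in BCSP to 385 ± 42 in PCP, 6.58-fold. Igf2 ran from 251 ± 7.9 in BLSP to 20.8 ± 2.5 in BCSP, 12.1-fold. Of the 28 pairs of populations, 15 differed for Igf2, 15 for Cdkn1c, 13 for H19, 8 for Peg3 and none for Grb10. Neighbours in the order of the means differed only where the order crossed from downstream to stem/progenitor populations: Igf2 between THY and pBCSP (edgeR adjusted p = 7.14e-05) and Cdkn1c between THY and BCSP (0.0226). For the other 8 members no neighbours in the order differed beyond their spread. The call for Meg3 had an adjusted p of 0.0363 and was lost when either library of SSC, PCP, THY or HEC was left out (0.0520 to 0.104), and that for Plagl1 (0.0364) without the second SSC library (0.0511), the first THY library (0.0595) or the first 6C3 library (0.0525). That for Rian (0.0142) was lost without the first PCP library (0.0643).

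Per kb of exon, the order of the members themselves changed with the stage. The median over the stem/progenitor populations was 639 CPM per kb for H19, 143 for Peg3, 129 for Dlk1, 122 for Cdkn1c, 60.9 for Grb10, 57.0 for Meg3, 28.8 for Plagl1, 7.37 for Rian, 4.62 for Igf2 and 2.24 for Mirg. Over the downstream populations Cdkn1c led with 357 CPM per kb, followed by H19 with 221, Grb10 with 102, Dlk1 with 75.2, Peg3 with 61.2, Meg3 with 40.9 and Igf2 with 31.8.

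The genes whose log2 CPM followed a member most closely over the 16 WT input libraries were sought among 8577 genes with a mean of at least 10 CPM. For H19 these were Kcnq1ot1 (Pearson r = 0.974), the imprinted antisense RNA of the neighbouring domain, and the ribosomal protein genes Rpl34 (0.969) and Rplp1 (0.963). For Igf2 they were Nptxr (0.987), Ankib1 and Specc1, for Cdkn1c Micall2 (0.963), Golph3 and Dcun1d5, and for Grb10 they included Mios and Gfra2. Peg3 was most like Pde4d (0.924), Gli2, a transcription factor of the hedgehog pathway, and Timm44; Plagl1 was most like Nr4a3 (0.951), Son and Nfat5. Meg3 was most like 6330403K07Rik (0.881), Arpc1b and Fchsd2, Rian was most like Synj2bp (0.911), Lysmd3 and 1700123O20Rik, Mirg was most like A230065H16Rik (0.841), Itpr3 and Acy1, and Dlk1 was most like Glis3 (0.867), Tcf4 and Farp1. Among the members, r over the 16 libraries was 0.936 between Igf2 and Cdkn1c, 0.846 between Peg3 and Plagl1, 0.776 between Meg3 and Rian and -0.809 between H19 and Igf2. All these libraries share the stages and the replicate numbers, and the values are descriptions.

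Other imprinted genes also differed between the stages. Of 63 imprinted genes outside the members, 55 could be tested, 24 were higher and 11 lower in the stem/progenitor populations, with a median difference of 0.44. Of all genes tested, 23.1% were called higher and 28.3% lower. Those that rose most were Asb4 (2.53 ± 0.18), Phlda2 (2.38 ± 0.23), a neighbour of Cdkn1c that restrains placental growth, Usp29 (1.97 ± 0.19) and Zim1 (1.49 ± 0.17), both next to Peg3, and Magel2 (1.78 ± 0.24). Mest, a paternally expressed gene, was lower (-1.89 ± 0.17), at 271 to 518 CPM against 678 to 2422 CPM. Slc22a3, Gatm, Htr2a and Slc22a2 were also called lower, but each was at a median of at most 0.0493 CPM in the stem/progenitor libraries and 2 to 6 of those 6 libraries held no count, so no fold is given. With the members counted in, all 3 testable genes of the Peg3 cluster and 4 of the 7 genes of the Dlk1-Dio3 cluster rose, the latter Dlk1, Meg3, Rian and 1 other gene, and none fell. In the H19-Igf2 and Kcnq1 clusters 4 of 12 rose, H19 among them, and the 2 that fell were Igf2 and Cdkn1c. In the published imprinted gene network, which shares 8 genes with the members, 10 of 16 rose and 5 fell.

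Genes of the IGF axis, the pathway of Igf2, differed in both directions. Of 18 tested genes of the IGF axis 6 were higher and 8 lower in the stem/progenitor populations, with a median of -0.10. The shares of all genes called were 23.1% and 28.3%. The receptors Igf1r (0.99 ± 0.13) and Insr (0.68 ± 0.19) and the receptor substrate Irs1 (1.11 ± 0.21) were higher, as were Pappa (1.77 ± 0.21), a protease that cleaves IGF binding proteins, and Stc2 (4.0 ± 0.17), which inhibits it. The ligand Igf1 was lower (-3.54 ± 0.15), and so were the binding proteins Igfbp5 (-3.60 ± 0.22), Igfbp4 (-2.88 ± 0.16) and Igfbp2 (-2.29 ± 0.18) and Igf2bp1 (-2.55 ± 0.22), a protein that binds Igf2 mRNA. Igf1 was at 11.9 to 80.7 CPM in the stem/progenitor libraries and 116 to 706 CPM downstream, so both IGF ligands were lower in the former. Among 6 tested cell cycle inhibitors of the Cip/Kip and INK4 families, including Cdkn1c, 1 rose and 4 fell, with a median of -1.28. The same shares of all genes stand beside these counts.

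The antibody recovered the members unequally. The IP to input ratio is given as the log2 CPM of an IP library minus that of the input library with the same number, and a gene is called m6A-tagged in a population where the fitted ratio exceeds 1 on the log2 scale with an unadjusted p under 0.05. The share of all tested genes called so was 6.67% in BCSP, 10.4% in SSC and 12% in pBCSP, and downstream 10.6% in PCP, 12.4% in both THY and BLSP, 13.5% in HEC and 14.5% in 6C3. H19 was tagged in 8 of 8 populations, Plagl1 in 7, Mirg in 4 and the other 7 members in none.

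H19 was above input in all 16 WT pairs. In the stem/progenitor populations its 2 pairs gave 1.01 and 1.28 in BCSP, 1.96 and 1.52 in SSC and 1.82 and 1.99 in pBCSP. Downstream, the PCP pairs gave 2.79 and 2.2, those of THY 2.83 and 2.04, those of 6C3 2.60 and 2.28, those of BLSP 1.81 and 2.44 and those of HEC 2.0 and 2.24. The fitted ratios ran from 1.1 in BCSP to 2.56 in PCP, and the edgeR adjusted p over all genes was under 0.05 in each population, from 1.77e-04 in HEC to 0.0479 in SSC. Without the first or second SSC input library it was 0.194 or 0.0602, without the second BCSP input library 0.0943 and without the first PCP IP library 0.0682, while the tag itself was kept. Plagl1 was also above input in 16 of 16 pairs, with fitted ratios from 0.89 in BCSP, the population in which it was not tagged, to 2.0 in 6C3; its tags in SSC and pBCSP were lost without the first input library (0.75 and 0.67) or the second IP library (0.74 and 0.82). Mirg was tagged in SSC (1.14), pBCSP (1.1), THY (1.24) and HEC (1.06), on input levels of 5.33 to 18.3 CPM, and each of these tags was lost when some single library was left out, with values between 0.58 and 1.35. Igf2 reached 1.00 in BCSP (0.9996 before rounding, edgeR unadjusted p = 0.0149), with pairs of 1.07 and 1.03, and was taken as untagged. Fitted with the replicate number as a block it was at 1.0007 and counted as tagged. It was also above 1 with DESeq2 size factors (1.017), library size alone (1.007) and DESeq2 (1.017), but not without the filter on low counts (0.986).

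Grb10 and Meg3 were recovered less than the average RNA. Grb10 was below input in 15 of 16 pairs, by between -1.07 and -2.21 in the 10 downstream pairs and between 0.40 and -1.35 in the 6 stem/progenitor pairs. Its fitted ratio had an adjusted p under 0.05 in each of the 5 downstream populations (edgeR, 0.00104 in HEC to 0.0122 in PCP, or 0.0682 in PCP without its first IP library) and in none of the stem/progenitor populations. In BCSP its ratio was -0.26, and 0.40 without the second input library. Meg3 was also below input in 15 of 16 pairs (median -0.66), and below 0 at an adjusted p under 0.05 only in HEC (-0.50, edgeR adjusted p = 0.0146). Cdkn1c was below input in 10 of 10 downstream pairs, between -0.34 and -1.32, whereas 4 of 6 stem/progenitor pairs were above it. Rian was above input in 10 of 10 downstream pairs (0.37 to 1.09) and Dlk1 in 10 of 10 (0.04 to 0.41), while 5 of 6 stem/progenitor pairs of Dlk1 were below it (lowest -0.99).

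**Figure D3:**
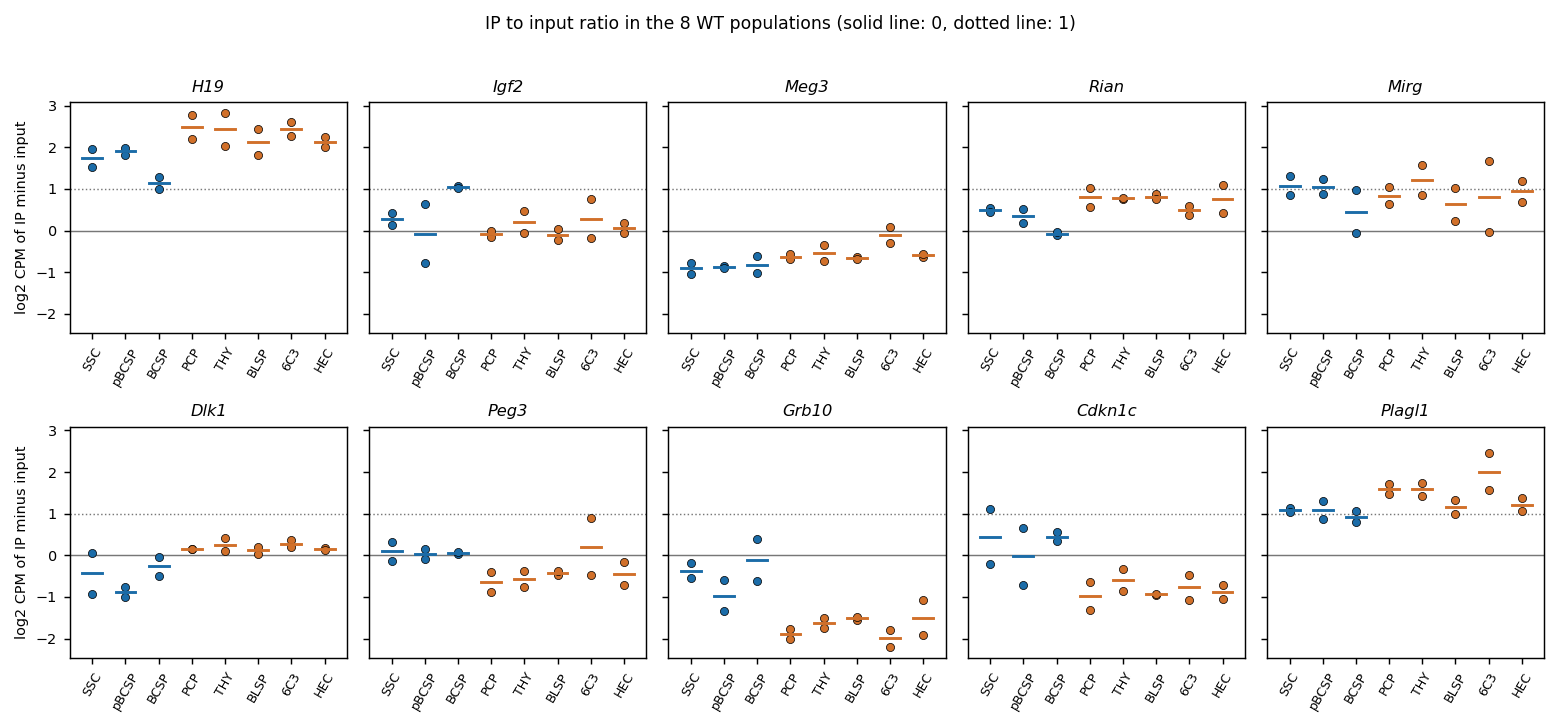
IP to input ratio (log2 CPM of IP minus input) of each of the 10 genes in the 2 pairs of libraries of each WT population; points are pairs and short bars their means, blue for stem/progenitor and orange for downstream populations, the solid line is at 0 and the dotted line at 1. H19 lies above 1 in 16 of 16 pairs, and all 10 downstream pairs of Grb10 lie below -1.

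The stages differed in the ratio of Grb10 and Cdkn1c. Grb10 was 1.19 ± 0.21 higher on the log2 scale in the stem/progenitor populations (edgeR adjusted p = 8.48e-04), and Cdkn1c 1.15 ± 0.21 higher (adjusted p = 0.00132). The other 8 members did not pass in this fit: 3.06% of all 25365 genes were called higher and 1.77% lower. H19 was 0.67 lower on the log2 scale (-0.67 ± 0.21, adjusted p = 0.0543), and 9 of its 10 downstream pairs were above its highest stem/progenitor pair. In edgeR it passed with DESeq2 size factors (adjusted p = 0.0157), library size alone (0.0445) or no filter on low counts (5.46e-07). By the DESeq2 test it passed as well (adjusted p = 0.00261). With a pair left out the H19 difference was -0.83 to -0.56. Since the IP and the input of a number came from the same sorted cells, the fit was repeated with each pair as a block, and 6 members were then called. Grb10 (adjusted p = 7.36e-11), Cdkn1c (2.70e-08) and Peg3 (0.47, adjusted p = 0.0186) were higher, and H19 (-0.69, adjusted p = 3.62e-05), Dlk1 (-0.68, adjusted p = 2.08e-04) and Plagl1 (-0.44, adjusted p = 0.0499) were lower in the stem/progenitor populations. The median of all genes was -0.08, and -0.24 with DESeq2 size factors in the same edgeR fit, which turned the 777 genes called higher and 450 lower into 427 and 628; Grb10 and Cdkn1c were called higher with both scalings. The exact permutation test over the 8 population means gave the smallest possible p, 0.0179, unadjusted, for H19, Dlk1, Grb10 and Cdkn1c.

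No member differed in its ratio when the 8 populations were compared without regard to stage (edgeR, 0.485% of genes called; 2 members at an unadjusted p under 0.05; 2 members by DESeq2). Grb10 missed the threshold with an adjusted p of 0.0610 and passed it whenever any 1 of the 16 pairs was left out (0.00164 to 0.0386). With pairs as a block 4 were called, Grb10 (adjusted p = 1.03e-08), Cdkn1c (1.34e-05), H19 (4.77e-04) and Dlk1 (0.0116). The share of mitochondrial counts in the IP also moved with the stage, from 1.56% to 2.92% in the stem/progenitor libraries and from 4.53% to 9.10% in the downstream libraries, and its part in the ratios was not tested. For Grb10 and Cdkn1c the input level moved the other way from the ratio, and for H19, Igf2, Meg3, Rian, Dlk1 and Plagl1 likewise. Peg3 moved the same way in both, and the sign of the Mirg ratio difference depended on the fit. The ratio subtracts the input level, so opposite movement is partly built into it.

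The comparison of Mettl3cko with WT follows the titles, and in these counts Mettl3 itself was not lower in the libraries labelled Mettl3cko. It had 369 to 618 counts in the 6 WT input libraries and 458 to 759 in the 6 Mettl3cko libraries, a difference over the 3 populations of 0.25 ± 0.15 on the log2 scale (edgeR adjusted p = 0.362). A count over the whole gene does not separate the floxed exons from the rest. The paper reports from qRT-PCR and western blot that Mettl3 was deleted, and from a dot blot that m6A fell in stem and progenitor cells. It also reports lower m6A levels in Mettl3cko SSC, pBCSP and BCSP from its SLIM-seq data. The qRT-PCR and the blots are not analysed here. In the 3 populations taken singly, edgeR called none of the genes tested in mRNA at an adjusted p under 0.05 and so none of the members, while DESeq2 called 661 genes in SSC, 158 in pBCSP and 548 in BCSP.

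Meg3 was lower in the Mettl3cko libraries of all 3 populations. In SSC it was at 1133 and 1244 CPM in WT and 861 and 888 CPM in the Mettl3cko libraries. In pBCSP it was at 812 and 1146 against 559 and 575 CPM, and in BCSP at 865 and 1198 against 728 and 608 CPM. Both knockout libraries were below both WT libraries in each population, by -0.45 ± 0.18, -0.77 ± 0.25 and -0.64 ± 0.24 on the log2 scale (edgeR unadjusted p = 0.0382, 0.0211 and 0.0308). Fitted over the 3 populations together, Meg3 was -0.61 ± 0.13 lower (1.53-fold, edgeR adjusted p = 0.0166), and it was the only member called, whereas 2.72% of all 18655 genes were called lower and 3.75% higher. No label says whether libraries of the same number in different populations came from the same mice, in which case the 12 libraries would rest on 2 pools per genotype and the p-values over them would be too small. With the counts of the 3 populations summed per genotype and number, an alternative chosen after seeing the data, Meg3 was -0.60 lower with an adjusted p of 0.230 (unadjusted p = 0.0134), and no gene passed (2747 genes at an unadjusted p under 0.05). The call was also lost without the second WT SSC library (adjusted p = 0.0544) or the second WT pBCSP library (0.0563).

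Igf2 and Peg3 lay lower as well, without passing the threshold. Igf2 was between 19 and 33.8 CPM in WT and between 7.16 and 21.2 CPM in the Mettl3cko libraries, and in each of the 3 populations both knockout libraries were below both WT libraries; its difference was -0.78 ± 0.25 (edgeR adjusted p = 0.0870). Peg3 was at 1649 and 2199 CPM against 1013 and 1372 in SSC, at 1233 and 2590 against 721 and 1133 in pBCSP and at 1187 and 1907 against 948 and 1197 in BCSP. Its difference over the 3 populations was -0.75 ± 0.21 (edgeR adjusted p = 0.0538), and libraries of the genotypes overlapped only in BCSP.

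**Figure D4:**
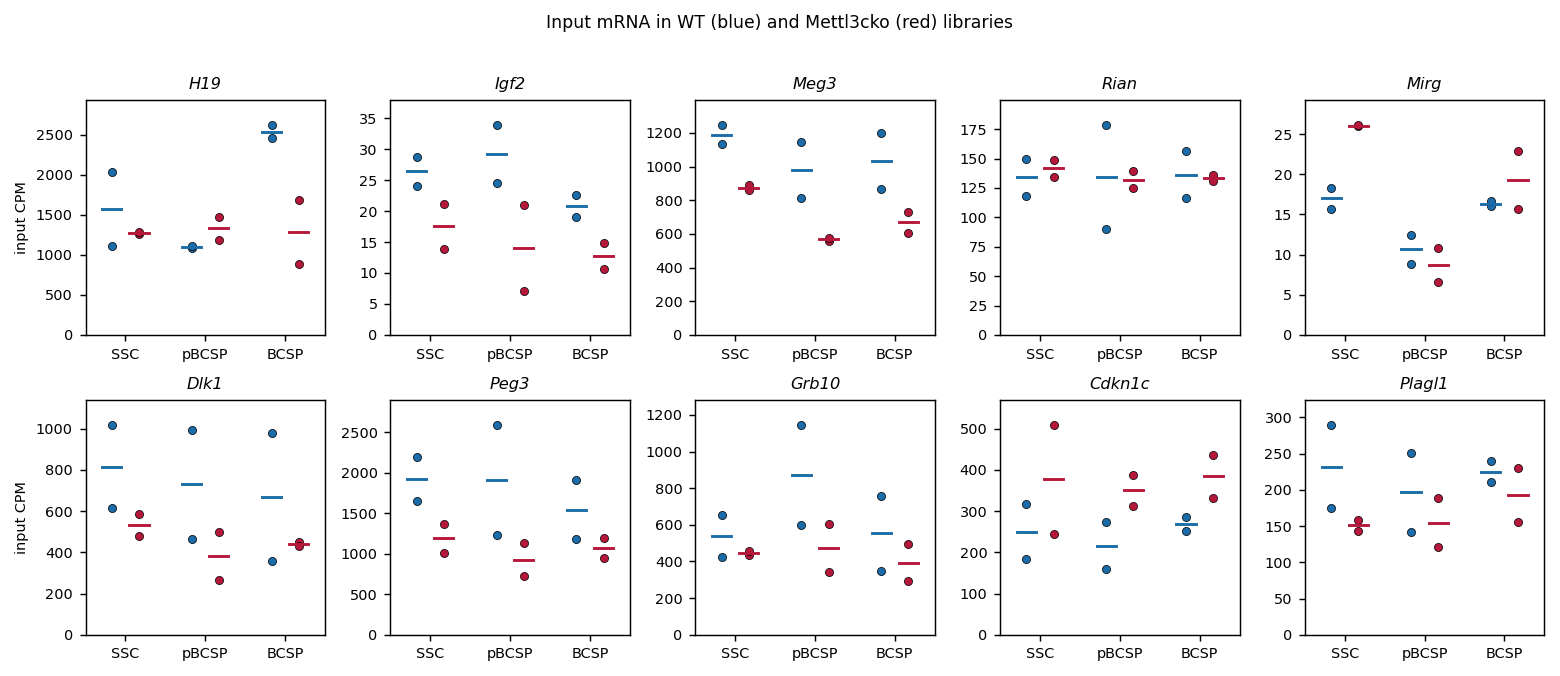
Input CPM of the 10 genes in WT (blue) and Mettl3cko (red) libraries of SSC, pBCSP and BCSP, each point a library, horizontal bars their means and each axis starting at 0. Meg3 and Igf2 are lower in both knockout libraries than in both WT libraries of each population, and H19 is lower so only in BCSP.

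The remaining members gave -0.71 ± 0.27 for Dlk1 (edgeR adjusted p = 0.146), -0.54 ± 0.25 for Grb10 (0.217), -0.39 ± 0.19 for Plagl1 (0.255), -0.33 ± 0.18 for H19 (0.304), 0.02 ± 0.17 for Rian (1.00), 0.19 ± 0.19 for Mirg (0.608) and 0.61 ± 0.21 for Cdkn1c (0.103). The median was -0.47 over the members and -0.05 over all genes tested. Cdkn1c was at 159 to 316 CPM in WT and 245 to 508 CPM in the Mettl3cko libraries, and both knockout libraries were above both WT libraries in pBCSP and BCSP. With the replicate number as a block, Peg3 (edgeR adjusted p = 0.00289) and Grb10 (0.0334) were called lower besides Meg3 (0.00954). That block joins libraries of the same number across genotypes and populations, a pairing that no label gives. At an unadjusted p under 0.05, 4 members were reached in SSC (Meg3, Peg3 and Plagl1 lower, Mirg higher), 2 in pBCSP (Meg3 and Peg3 lower) and 2 in BCSP (Meg3 and H19 lower), beside 14.7%, 8.37% and 13% of all genes. For no member was a difference of the genotype effect between the populations called (edgeR, 0% of genes; the smallest unadjusted p was 0.0394, for H19; DESeq2 also called no member). In the IP to input ratio no gene was called in any single population by edgeR, and no member reached an unadjusted p under 0.05, against 14.5% of genes in SSC, 11.9% in pBCSP and 10.3% in BCSP.

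**Figure D5:**
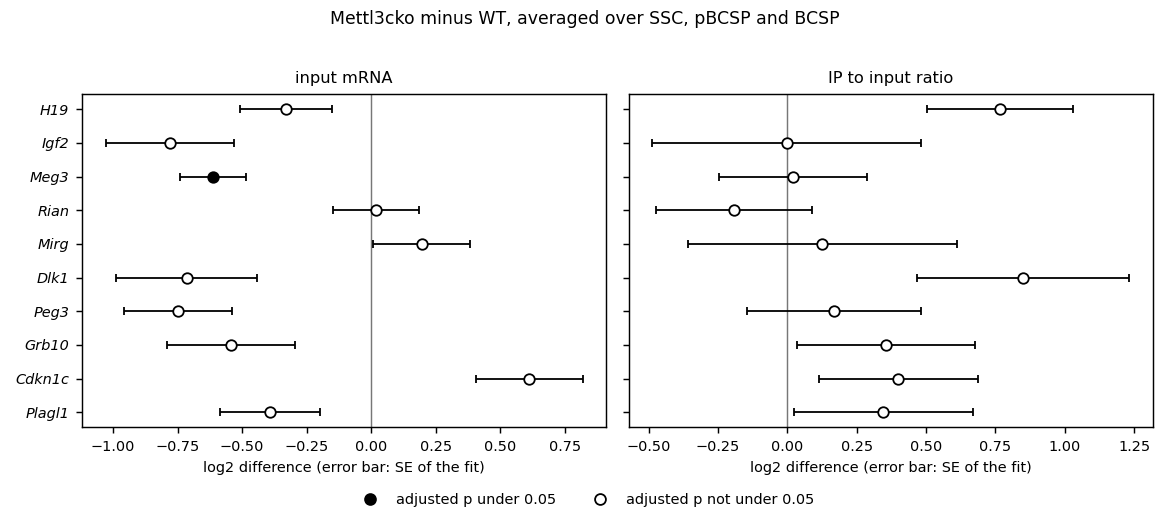
Difference of Mettl3cko from WT over SSC, pBCSP and BCSP on the log2 scale, for input mRNA and for the IP to input ratio, with bars of 1 SE; filled points have an edgeR adjusted p under 0.05. Meg3 mRNA (-0.61) is the only filled point.

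Over the 3 populations no member was called in the ratio, where 0.643% of all 20360 genes were higher and 3.30% lower and the median of all genes was -0.39. The median over the members was 0.26. H19 was above input in 6 of 6 Mettl3cko pairs. Its ratio was between 1.01 and 1.99 in the 6 WT pairs and between 1.75 and 3.00 in the 6 Mettl3cko pairs, a difference of 0.77 ± 0.26 (edgeR adjusted p = 0.117). Both knockout pairs of H19 were above both WT pairs in SSC and BCSP. Plagl1 stayed above input in 6 of 6 Mettl3cko pairs (0.51 to 2.19), as in WT (0.79 to 1.31). Dlk1 was at -0.99 to 0.06 in WT and -0.27 to 0.75 in the knockout, a difference of 0.85 ± 0.38 (edgeR adjusted p = 0.259). No spike-in is named in the sources used here, and a ratio is relative to the other RNA of the same libraries.

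Among the other imprinted genes, 4 were higher and 2 lower in the Mettl3cko libraries of 53 tested. Of all genes tested, 3.75% were called higher and 2.72% lower. Phlda2 rose from 10.3 to 29.8 CPM in WT to 50.7 to 132 CPM in the knockout (2.09 ± 0.23, edgeR adjusted p = 0.00156), and Phactr2 (0.71 ± 0.17) and Tssc4 (0.53 ± 0.12) rose less; the fourth, Gatm, was at or near 0 in the WT libraries. Rtl1, in the Dlk1-Dio3 cluster with Meg3, fell (-1.32 ± 0.26, edgeR adjusted p = 0.0139), as did Ndn (-0.45 ± 0.10, edgeR adjusted p = 0.0218). No gene of the IGF axis was called (edgeR, 18 tested). None of these calls held with the counts of the 3 populations summed per genotype and number. In the same libraries the 3 tendon and joint markers (Scx, Tnmd and Prg4) summed to 1242 to 3330 CPM in WT and 480 to 882 CPM in the knockout, and chondrocyte markers to 91375 to 110344 CPM and 57281 to 113985 CPM; their part in these differences was not tested. The tendon and joint sum was mostly Prg4, whose means were 1785, 3166 and 1315 CPM in WT SSC, pBCSP and BCSP and 481, 557 and 505 CPM in the knockout, whereas the mean of Tnmd was higher in the knockout in pBCSP (137 against 121 CPM) and BCSP (99.8 against 53.4 CPM).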

How the data were processed

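RNA of sorted skeletal cells was profiled by SLIM-seq, a low-input m6A immunoprecipitation, with matched input RNA-seq. The authors trimmed reads with fastp 0.20.1, aligned them to GRCm38 with HISAT2 2.2.1 and counted them per gene with featureCounts 2.0.1; the deposited values are raw counts, 1 column per library, and the annotation, strand and multi-mapping settings are not given in the sources used here. A further 2 deposited tables hold the authors' own DESeq2 comparisons and were not used. The rows named 1-Mar or 2-Mar, which repeat and name no single gene, were left out (128 of 46959 rows, at most 0.390% of a library's counts). Positions and lengths came from GENCODE vM21, to which 44687 of 46831 genes matched by symbol, and microRNA sequences from RefSeq.

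Counts were normalized by TMM, filtered with filterByExpr and tested with the quasi-likelihood test of edgeR 4.0.16, with Benjamini-Hochberg adjustment over all genes of a fit and a threshold of 0.05. Printed log2 CPM used a prior count of 2. The members, the gene lists and the tests were chosen with earlier results of these data known. All 10 members are named in every comparison, the 5 genes with the largest called difference from the imprinted and IGF lists, and the 3 most alike genes per member, of which 1 is not reported here; Mettl3 checks the deletion. Alternatives were DESeq2 1.42.0, its size factors, no scaling, no filter, a replicate block, libraries left out, and summed counts, the last 2 chosen after seeing the data. The scripts were tested on simulated data. Input and IP of a number came from the same sorted cells and form a pair; their replicate differences correlated at r of 0.0187 to 0.241 over genes. The 2 replicates of each group differed beyond sampling noise (chi-square over its degrees of freedom at least 25.9). This value was highest in the Mettl3cko IP, at 491 in SSC, 299 in pBCSP and 242 in BCSP.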

Additional observations from a re-analysis of the deposited data

Results flagged for a closer look

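The IP to input ratio of Grb10 was 1.19 higher on the log2 scale in the stem/progenitor than in the downstream WT populations, and that of Cdkn1c was 1.15 higher, both by a test of the difference itself (edgeR, adjusted p = 8.48e-04 and 0.00132).

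For 3 other members the values lay in opposite directions in 2 populations, both Mettl3cko values lying on one side of both WT values in the first population and on the other side in the second. The share of all genes with such a pattern was not computed, and with 2 libraries per group it can arise from spread alone. This count is a description only. H19 mRNA differed from WT by 0.29 in pBCSP and by -0.98 in BCSP, and over the 3 populations the test of differing genotype effects gave an unadjusted p of 0.0394 and an adjusted p of 0.941 for it (edgeR). The IP to input ratio of Igf2 differed by 0.66 in SSC and by -1.28 in BCSP, on input levels of 7.16 to 33.8 CPM. The ratio of Rian differed by 0.20 in BCSP and by -0.48 in pBCSP. For the ratios of Igf2 and Rian the difference between populations was not tested, and none of the 6 values in these 3 members had an edgeR adjusted p under 0.05 as reported. H19 in BCSP had an adjusted p of 0.0144 by DESeq2 and 0.00671 without the filter on low counts.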

How the results depend on the processing

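Of the 567 alternative values of members past the threshold, 529 stayed past it, 38 did not and none changed sign, and 201 of 257 alternative counts of called members lay within 1.5 times the count reported. For each count that did not, the cause was not tested. The planned fits without a whole replicate number were not run, since 1 library per group leaves no residual degrees of freedom; single libraries were left out instead, as chosen after seeing the data. A group then has 1 library, assumed to vary like the others. With 2 libraries per group, no spike-in and no label for shared animals, p-values describe these libraries.

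Members differing in the ratio between the 8 WT populations numbered 0, but 4 without the filter on low counts (866 of all genes, against 123), 2 by DESeq2 (999 genes), 4 with the replicate block (923 genes) and 1 to 2 with a pair left out. Between the stages the count of 2 became 5 without the filter, 5 by DESeq2 (1953 genes, against 1227), 6 with the replicate block and 2 to 4 with a pair left out. Members tagged in SSC and in pBCSP, 3 each, became 1 and 1 when the adjusted p had to pass, and 1 to 3 in both with a library left out. In BCSP the count of 1 became 2 with DESeq2 size factors, library size alone, the DESeq2 test or the replicate block, and 1 to 3 with a library left out. Over the 3 populations the 1 member changed in mRNA in Mettl3cko became 6 without the filter (2200 genes, against 1208), 5 by DESeq2 (2408 genes), 3 with the replicate block (1616 genes), 0 with summed counts (0 genes) and 0 to 3 with a library left out. The ratio there gave 2 members without the filter (1411 genes, against 803) in place of 0, with 2239 genes by DESeq2, 204 with the replicate block and 0 with summed counts. In single populations, where edgeR called 0 members in mRNA, SSC gave 1 without the filter (793 genes) and 3 by an unadjusted p with a log2 change beyond 0.5 (2258 genes). By the same settings pBCSP gave 1 (245 genes) and 2 (1339 genes), and BCSP gave 1 (540 genes) and 2 (2111 genes), with 1 by DESeq2 in BCSP (548 genes). With a library left out pBCSP and BCSP gave 0 to 1. For mRNA with the replicate block, edgeR called 288 genes in SSC, 0 in pBCSP and 46 in BCSP, and in the ratio, where edgeR called 0, DESeq2 called 1755, 983 and 717 genes. In mRNA between the 8 WT populations, 9 members were called with the replicate block in place of 7. The count was 10 without the filter, 9 by DESeq2 and 6 with library size alone. With library size alone Meg3 (edgeR adjusted p = 0.0628) and Plagl1 (0.0508) were not called, and Grb10 (0.0456) was. In the ratio between the WT stages, edgeR called 3 members with DESeq2 size factors (1055 genes) and 3 with library size alone (1199 genes), H19 besides Grb10 and Cdkn1c.

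Values that changed sign were all short of the threshold. Over every value of every member, 107 of 2630 alternative values changed sign, and only a part of these results is listed here. The ratio difference of Mirg between the stages, 0.10, was -0.075 with DESeq2 size factors, -0.046 without the filter, -0.076 by DESeq2 and -0.093 to 0.29 with a pair left out. With a library left out, the BCSP ratio of Grb10 was -0.73 to 0.40 and that of Mirg -0.075 to 0.89, the H19 difference in Mettl3cko SSC was -0.68 to 0.21, and the Rian difference over the 3 populations was -0.12 to 0.21.

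In the main fits, libraries of different groups were not taken as paired by their number, since no label says so. The mRNA fits with the replicate block do join input libraries of the same number across groups. Their calls rest on a pairing that no label gives. No set of groups had every correlation over 0.1, but such correlations cannot tell shared from separate animals. The IP and input of the same sorted WT cells correlated as low as 0.0187 in 6C3 and at most 0.241 in PCP. If populations shared animals, the p-values of the tests between WT stages could be too small. Deviations of input libraries with the same number correlated over genes at r of -0.19 to 0.12 between WT populations, 0.089 to 0.12 within SSC, pBCSP and BCSP of WT, 0.060 to 0.083 within those of Mettl3cko, and -0.0022 to 0.0057 between the genotypes.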
